A study of Sus scrofa with 29 samples.

Results

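Genes of antibody receptors and leukocyte signalling, 8 in all, were followed in the lining of pig arteries: the IgG receptors FCGR2B and FCGR3A, the signalling chains FCER1G and TYROBP, the phosphatases PTPN6 and PTPRC, the tetraspanin CD53 and the kinase substrate PLEK. They were chosen by name, as the probe sets carrying 1 of these 8 symbols in the platform annotation. The names had been picked with measured values of the same arrays in view, chiefly the lower values of FCGR2B, FCGR3A, CD53, PLEK, FCER1G and TYROBP in brachial arteries of exercised pigs. That comparison is therefore given for the 8 genes as a description without a test. The 8 genes were read by 12 of the 23999 probe sets and make up 8 of the 6765 symbols that the array named. CD53 had 3 probe sets, FCGR3A and PTPN6 had 2 each, and the others had 1. Each gene was represented by its probe set with the highest mean over all arrays, and the remaining probe sets are given where they differ.

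The arrays came from 15 pigs, with 1 array for each artery of a pig. Exercised pigs ran on a treadmill for 16 to 20 weeks, reaching 85 min a day on 5 days a week by week 10, and were sampled about 24 h after the last bout. Sedentary pigs stayed in their enclosures. The inner surface of the brachial artery, which supplies the forelimb, and of the internal mammary artery, which runs along the chest wall, was scraped, and the RNA of each scrape was hybridised to 1 array. The exercised brachial group held 7 arrays, the sedentary brachial group 7, the exercised internal mammary group 8 and the sedentary internal mammary group 7. Both arteries were measured in 14 pigs, and pig 12_2 (exercised) had an internal mammary array alone. All pigs were described as healthy, and the labels used here give neither breed nor age.

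IgG receptors sit on macrophages, monocytes, neutrophils and natural killer cells and bind the constant part of antibodies. As worked out chiefly in human and mouse cells, activating receptors such as FCGR3A signal through the partner chain FCER1G, whose activation motif recruits the kinase SYK. The receptor FCGR2B instead carries an inhibitory motif in its own tail that recruits phosphatases. TYROBP is a second partner chain of the same kind for other myeloid and natural killer receptors. In arteries such transcripts are known mainly from macrophages and other leukocytes in the wall, and much less from endothelial cells.

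The scrapes, described as enriched for endothelium, carried endothelial transcripts throughout. The mean log2 intensity of 15 endothelial markers lay between 10.55 and 11.05 in exercised brachial, 10.56 and 11.11 in sedentary brachial, 10.62 and 10.97 in exercised internal mammary and 10.60 and 11.25 in sedentary internal mammary arrays. Smooth muscle transcripts were there too, with a mean of 12 markers between 11.09 and 13.17 over all arrays. Array medians ran from 7.13 to 7.28, and correlations between arrays from 0.965 to 0.995. Spike-in controls separated the arteries. Of 11 hybridisation controls, 7 were higher on every brachial than on every internal mammary array, with a median difference of 0.74 over the 11. Artery and array handling therefore cannot be told apart. Other versions of these controls on the array were not among the 11. A 28S ribosomal RNA control of the array was also apart. Its group medians were 8.22 in exercised and 8.31 in sedentary brachial arrays, against 12.61 in exercised and 11.79 in sedentary internal mammary arrays. The 18S controls differed in direction. In the same order of groups, one had medians of 8.09 and 8.27 against 11.73 and 11.66. Another had 12.06 and 12.08 against 11.01 and 11.49. In scrapes of mixed cells, fewer cells of a type and less RNA per cell cannot be told apart.

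**Figure D1:**
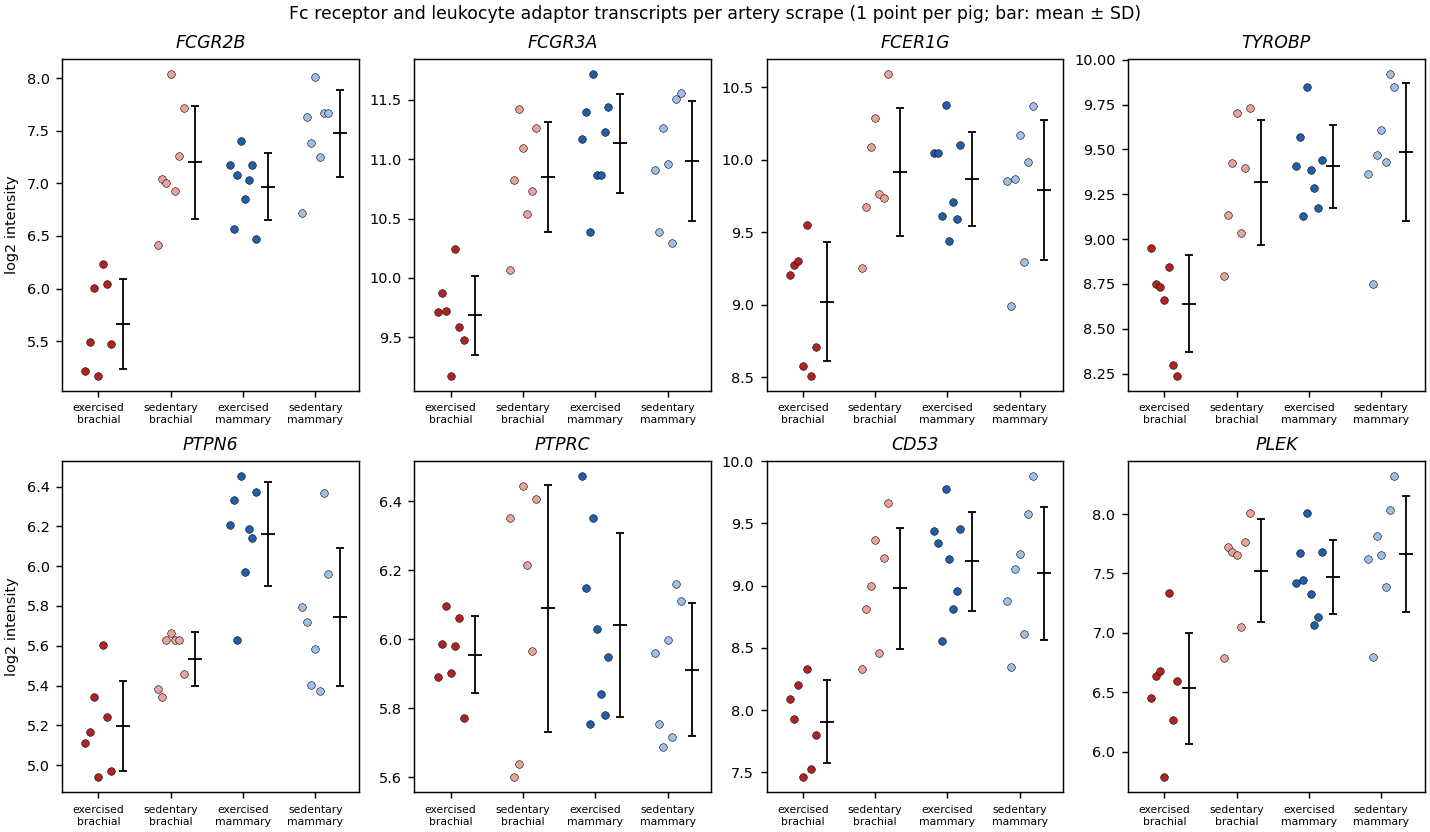
Log2 intensity (y axis) of the representative probe set of each of the 8 genes in the 4 groups (x axis), with 1 point per array and a bar for the mean ± SD. The exercised brachial arrays lie lowest for FCGR2B, FCGR3A, FCER1G, TYROBP, PTPN6, CD53 and PLEK. FCGR2B alone shows no overlap between exercised brachial arrays and any other group. It was picked with these low values in view, and the share of all probe sets without such overlap was not counted.

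FCGR2B, the inhibitory IgG receptor, had the widest gap between exercised and sedentary brachial arteries. Its log2 intensity ran from 5.17 through a median of 5.49 to 6.23 in exercised brachial arrays, against 6.41, 7.04 and 8.04 (lowest, median and highest) in sedentary brachial arrays. The 2 groups did not overlap. FCGR2B was picked with these low values in view, and the share of all probe sets without overlap was not counted. Internal mammary values ran from 6.47 through 7.05 to 7.40 in exercised pigs, against 6.72, 7.64 and 8.01 in sedentary pigs. These groups overlapped, although all 8 exercised arrays lay below the sedentary mean. By mean level the order was sedentary internal mammary (7.48 ± 0.41, SD, n = 7), sedentary brachial (7.20 ± 0.54, n = 7), exercised internal mammary (6.97 ± 0.32, n = 8) and exercised brachial (5.66 ± 0.43, n = 7). Each of the first 3 overlapped with its neighbour, and the fourth stood below all 3. The fitted change with exercise was -1.52 ± 0.20 (log2, SE) in the brachial artery, a level 2.88-fold lower.

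FCGR3A, the activating receptor known as CD16, showed the same order between brachial groups. Its representative probe set ran from 9.18 through 9.72 to 10.24 in exercised brachial arrays, against 10.07, 10.82 and 11.42 in sedentary brachial arrays. Of the 7 exercised arrays 6 lay below every sedentary one, and the overlap came from pig 14_3 above sedentary pig 10_2. Internal mammary values were 10.38, 11.20 and 11.72 in exercised pigs, against 10.30, 10.96 and 11.56 in sedentary pigs, and the groups covered nearly the same range. The fitted brachial change was -1.14 ± 0.22, a level 2.21-fold lower in exercised pigs. The second FCGR3A probe set gave -0.41 ± 0.18, with all 7 exercised arrays below the sedentary mean but only 2 below every sedentary one. It followed the first weakly over 29 arrays, with a Pearson r of 0.17, or 0.33 after group means were removed.

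FCER1G, the shared partner chain of activating Fc receptors, ran from 8.51 through 9.21 to 9.55 in exercised brachial arrays, against 9.26, 9.76 and 10.59 in sedentary brachial arrays. The groups overlapped, with 4 of 7 exercised arrays below every sedentary one. In internal mammary arrays the values were 9.44, 9.88 and 10.38 in exercised pigs, against 8.99, 9.87 and 10.37 in sedentary pigs, with the same top end in both. The fitted brachial change was -0.88 ± 0.21, or 1.83-fold lower. TYROBP, also called DAP12, ran from 8.24 through 8.73 to 8.95 in exercised brachial arrays, against 8.79, 9.39 and 9.73 in sedentary brachial arrays. Here 5 of 7 exercised arrays lay below all sedentary ones, and the fitted change was -0.66 ± 0.16, or 1.58-fold lower. In internal mammary arrays TYROBP gave 9.13, 9.40 and 9.85 in exercised pigs, against 8.75, 9.47 and 9.92 in sedentary pigs, and the exercised range lay inside the sedentary one.

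PTPN6 encodes SHP-1, the cytoplasmic tyrosine phosphatase that inhibitory receptors recruit in blood cells. It ran from 4.94 through 5.17 to 5.60 in exercised brachial arrays, against 5.34, 5.63 and 5.66 in sedentary brachial arrays. The fitted change was -0.33 ± 0.14, and 6 of 7 exercised arrays lay below every sedentary one. The order was turned among internal mammary arrays, with 5.63, 6.20 and 6.45 in exercised pigs, against 5.37, 5.72 and 6.37 in sedentary pigs, although the ranges overlapped. Both PTPN6 probe sets are dim enough to be dropped by the filter tried as an alternative, and the second gave 0.06 ± 0.10 in the brachial artery, so the 2 probe sets differ in sign.

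PTPRC, the receptor phosphatase CD45 carried by nearly all nucleated blood cells, had log2 intensities of 5.77, 5.98 and 6.09 in exercised brachial arrays, against 5.60, 6.22 and 6.44 in sedentary brachial arrays. The exercised range lay wholly inside the sedentary one. In internal mammary arrays the values were 5.75, 5.99 and 6.47 in exercised pigs, against 5.69, 5.96 and 6.16 in sedentary pigs. The fitted brachial change was -0.12 ± 0.13, smaller than its error. The only PTPRC probe set was itself dim, with a mean just above the cut of the filter that drops both PTPN6 probe sets. Whether it could show a change in leukocyte content was not tested. All 4 group means lay between 5.91 and 6.09, with SDs of 0.11 to 0.36, so no neighbours in their order stood apart.

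CD53, a tetraspanin of leukocyte membranes, ran from 7.46 through 7.93 to 8.33 in exercised brachial arrays, against 8.33, 9.00 and 9.66 in sedentary brachial arrays. The groups met only at the top exercised and the bottom sedentary array. In internal mammary arrays it gave 8.55, 9.28 and 9.78 in exercised pigs, against 8.35, 9.14 and 9.88 in sedentary pigs. The fitted brachial changes of its 3 probe sets were -1.05 ± 0.22, -0.90 ± 0.22 and -0.53 ± 0.16, all with 7 of 7 exercised arrays below the sedentary mean. PLEK, or pleckstrin, which protein kinase C phosphorylates when platelets and leukocytes are activated, ran from 5.78 through 6.59 to 7.33 in exercised brachial arrays, against 6.79, 7.68 and 8.01 in sedentary brachial arrays. All exercised arrays but that of pig 14_3 lay below every sedentary one. The fitted change was -0.97 ± 0.22, and in internal mammary arrays PLEK gave 7.06, 7.43 and 8.01 in exercised pigs, against 6.80, 7.65 and 8.32 in sedentary pigs.

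In the brachial comparison that helped choose them, all 8 genes were lower in exercised pigs by representative probe sets. Because the choice used this comparison, nothing is read from that count, and no test is given for the 8 genes. Over the whole array 0.613% of probe sets were lower and 1.02% higher past the threshold (adjusted p under 0.05 in limma). The median change of the 8 genes was -0.92, against 0.01 over all probe sets.

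**Figure D2:**
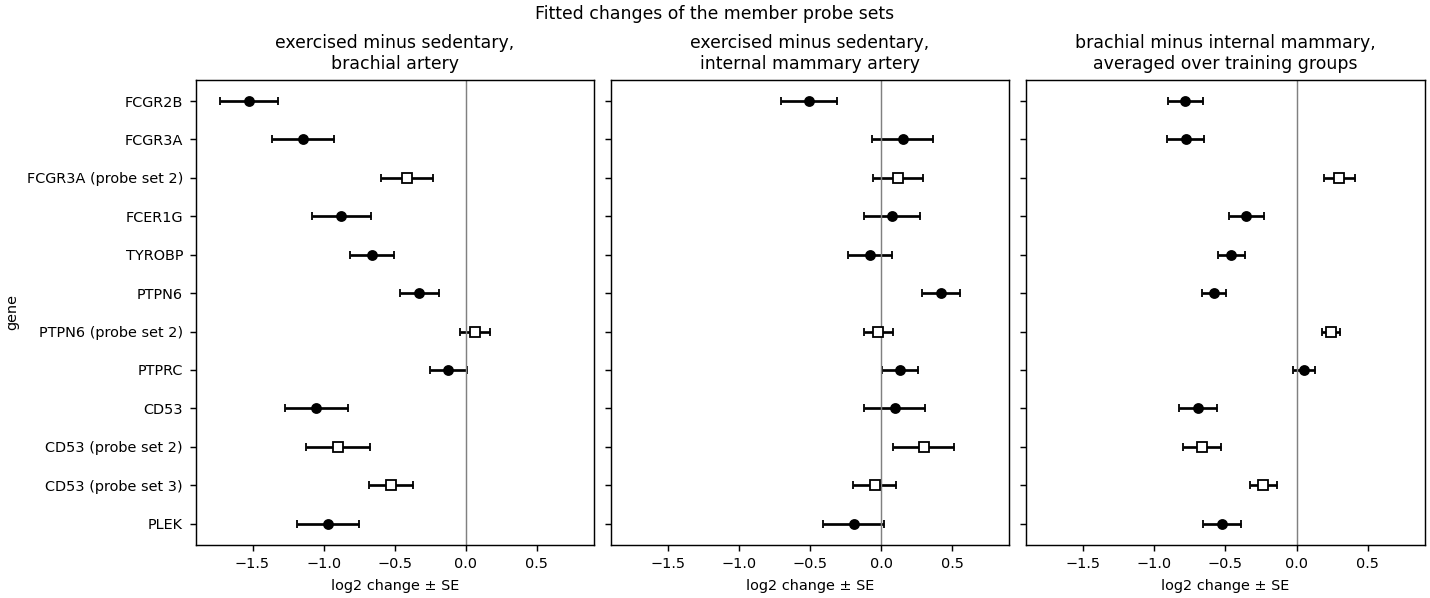
Fitted log2 change ± SE (x axis) of all 12 probe sets of the 8 genes (y axis) for exercise in the brachial artery, exercise in the internal mammary artery and brachial minus internal mammary artery. Filled circles are representative probe sets and open squares the others. In the internal mammary panel the representative points spread from -0.51 for FCGR2B to 0.42 for PTPN6 around 0, and in the artery panel the second probe sets of FCGR3A and PTPN6 lie on the other side of 0 from the first.

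Whether training was accompanied by the same differences in the internal mammary artery was tested, since the choice rested chiefly on brachial arrays. Earlier results of these data were known, however, and both arteries came from the same pigs. The test is therefore not fully independent of the choice. Of the 8 genes 0 passed in either direction, and 2 had an unadjusted p under 0.05, as did 2945 of the 23999 probe sets. Over the whole array 0.458% of probe sets rose and 0.138% fell. The median of the 8 changes was 0.09, with 3 negative and 5 positive, against a median of 0.01 over all probe sets. FCGR2B gave -0.51 ± 0.20, or 1.42-fold lower, with a 95% confidence interval of -0.92 to -0.10. Its unadjusted limma p was 0.0158 and its adjusted p 0.254. PTPN6 went the other way, with 0.42 ± 0.13 (interval 0.14 to 0.69, 7 of 8 exercised arrays above the sedentary mean, limma adjusted p = 0.144). Its second probe set gave -0.02 ± 0.10.

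For the remaining genes the internal mammary intervals spanned 0. FCGR3A gave 0.15 ± 0.21 (interval -0.29 to 0.59, limma adjusted p = 0.845) and CD53 0.10 ± 0.21 (interval -0.34 to 0.53, adjusted p = 0.908). FCER1G gave 0.08 ± 0.20 (interval -0.33 to 0.49), TYROBP -0.08 ± 0.15 (interval -0.39 to 0.23), PLEK -0.19 ± 0.21 (interval -0.63 to 0.24) and PTPRC 0.13 ± 0.13 (interval -0.13 to 0.39). RNA quality moved with training in this artery. The 28S to 18S ratio of the extracts was 1.25, 1.31 and 1.47 (lowest, median and highest) in exercised pigs, against 1.07, 1.18 and 1.29 in sedentary pigs. With that ratio as a covariate 0 of the 8 genes passed, and FCGR2B and PTPN6 gave -0.44 and 0.35.

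The difference between the 2 training changes (brachial minus internal mammary) shares the brachial arrays with the comparison used to choose the genes and is again only described. It was negative for all 8 genes, from -1.30 ± 0.27 for FCGR3A and -1.15 ± 0.27 for CD53 to -0.25 ± 0.16 for PTPRC. FCGR2B gave -1.01 ± 0.25, FCER1G -0.95 ± 0.25, PLEK -0.78 ± 0.27, PTPN6 -0.75 ± 0.17 and TYROBP -0.58 ± 0.19. Over the whole array 0 of 23999 probe sets passed for this difference in limma, and 1035 had an unadjusted p under 0.05.

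Averaged over both training groups, the representative values of FCGR2B, FCGR3A, FCER1G, TYROBP, PTPN6, CD53 and PLEK were lower in brachial than in internal mammary scrapes. That average contains the exercised brachial arrays whose low values helped choose the genes, so it is described here without a test. Over the whole array 22.5% of probe sets were lower and 31.8% higher past the threshold, and no such calls are given for the 8 genes. The median difference of the 8 genes was -0.55, against 0.03 over all probe sets. FCGR2B averaged 6.43 ± 0.92 in brachial and 7.21 ± 0.44 in internal mammary arrays (SD, n = 14 and 15), a fitted difference of -0.78 ± 0.12. FCGR3A gave -0.78 ± 0.13, CD53 -0.69 ± 0.13, PTPN6 -0.58 ± 0.08 and PLEK -0.53 ± 0.13. TYROBP gave -0.46 ± 0.09, FCER1G -0.35 ± 0.12 and PTPRC 0.05 ± 0.08.

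The second probe sets of FCGR3A and PTPN6 were higher in brachial arrays, by 0.30 ± 0.11 and 0.24 ± 0.06, while all 3 CD53 probe sets were lower. With the mean of the 11 hybridisation controls as a covariate, chosen after seeing the data, FCGR2B shrank to -0.28, TYROBP gave -0.75, and 1742 probe sets passed in all. Within pigs, brachial was below internal mammary in 12 of 14 pigs for FCGR2B, TYROBP and CD53, in 11 for PTPN6 and PLEK, in 10 for FCGR3A, in 9 for FCER1G and in 7 for PTPRC.

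Within each training group the artery difference again shares arrays with the comparison that chose the genes and is described only. In exercised pigs the fitted artery difference was -1.43 for FCGR3A, -1.29 for FCGR2B, -1.27 for CD53, -0.95 for PTPN6, -0.91 for PLEK, -0.83 for FCER1G, -0.75 for TYROBP and -0.07 for PTPRC. In sedentary pigs it lay between -0.27 for FCGR2B and 0.18 for PTPRC by representative probe sets, with standard errors of 0.11 to 0.19. All 7 exercised pigs with both arteries had lower brachial values of FCGR2B, FCGR3A, FCER1G, TYROBP, PTPN6 and CD53 by representative probe sets, and 6 of 7 had lower PLEK. Among the 7 sedentary pigs this held for 5 with FCGR2B, TYROBP, CD53 and PLEK, 4 with PTPN6, 3 with FCGR3A and PTPRC and 2 with FCER1G. The second probe sets gave other counts. That of PTPN6 was lower in brachial arteries of 0 of 7 exercised and 2 of 7 sedentary pigs. That of FCGR3A was lower in 3 of 7 exercised and 0 of 7 sedentary pigs, with a sedentary artery difference of 0.57 ± 0.16.

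The labels date each collection, and the pigs were divided by that order into the 8 collected first and the 7 collected last, a division that the labels themselves do not make. Each period held both training groups. In the brachial artery all 8 genes were lower in exercised pigs in both periods. The median difference was -0.68 among the 8 pigs collected first and -1.15 among the 7 collected last. Both periods are parts of the brachial arrays that helped choose the genes, so nothing is read from these counts. The share of all probe sets lower in exercised pigs was not counted by period for either artery. FCGR2B differed by -1.55 in the first period and -1.57 in the last. For the internal mammary artery 1 of 8 genes, FCGR2B, was lower in exercised pigs of the first period (median of the 8 genes 0.29), and 7 of 8 in the last (median -0.21). PTPN6 was higher in exercised internal mammary arteries in both, by 0.53 and 0.27, and FCGR2B lower in both, with -0.38 and -0.65. CD53 gave 0.37 in the first and -0.25 in the last period, and PLEK 0.16 and -0.62. A period held 3 or 4 arrays per group, and 0 of the 8 genes passed in the internal mammary artery in either period alone.

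**Figure D3:**
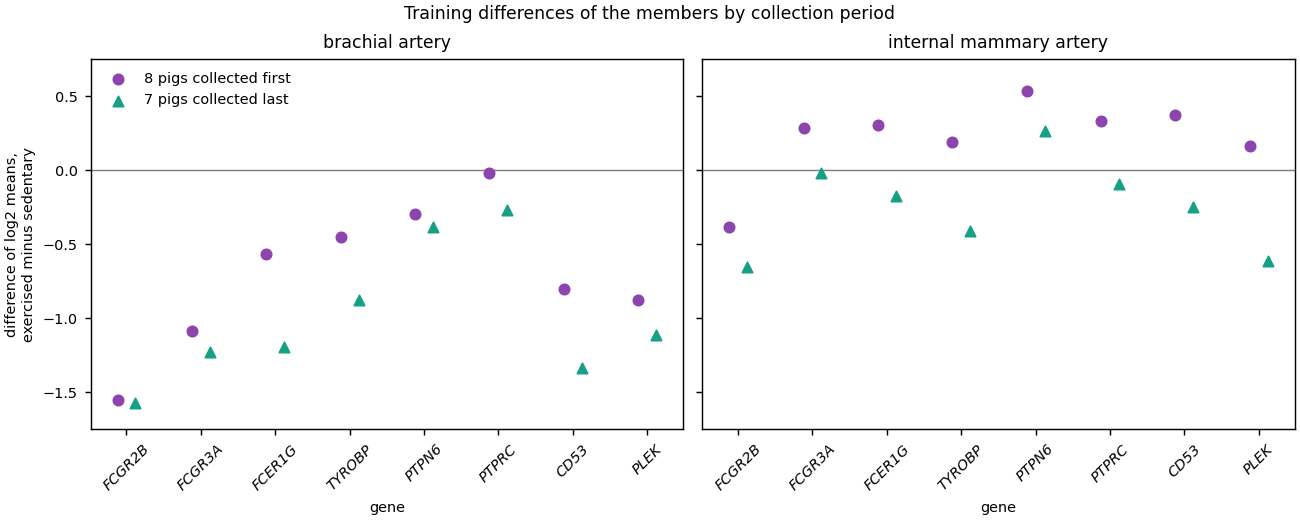
Difference of log2 means, exercised minus sedentary (y axis), for the 8 genes (x axis) among the 8 pigs collected first (circles) and the 7 collected last (triangles). All brachial points, from arrays that helped choose the genes, lie below 0. In the internal mammary artery 7 of 8 circles lie above 0 and 7 of 8 triangles below it.

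Single pigs carried several genes at once. Pig 14_3 held the highest exercised brachial value of 6 of the 8 genes, and pig 12_5 the lowest of 5. Among sedentary brachial arrays pig 10_2 was lowest for 6 genes and pig 17_1 highest for 4. In exercised internal mammary arrays pig 12_2, which has no brachial array, was highest for 7 genes, and pig 11_3 was lowest for 5. After group means were removed, the 28 pairs of the 8 genes had Pearson correlations from 0.19 to 0.88 over 29 arrays, with a median of 0.48 and 0 negative. Without PTPN6 and PTPRC the median of 15 pairs was 0.82. FCER1G and CD53 were closest (0.88), followed by TYROBP and CD53 (0.87) and PLEK and CD53 (0.86). FCER1G and TYROBP gave 0.85, and FCER1G and its receptor partner FCGR3A gave 0.84. With the second FCGR3A probe set FCER1G gave 0.35. FCGR2B had 0.28 to 0.46 with the other 7 genes and PTPRC 0.19 to 0.47. FCGR2B gave 0.39 with FCGR3A, the gene next to it in the RefSeq order of assembly Sscrofa11.1. Arteries of a pig share an animal, so these 29 points are not independent.

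**Figure D4:**
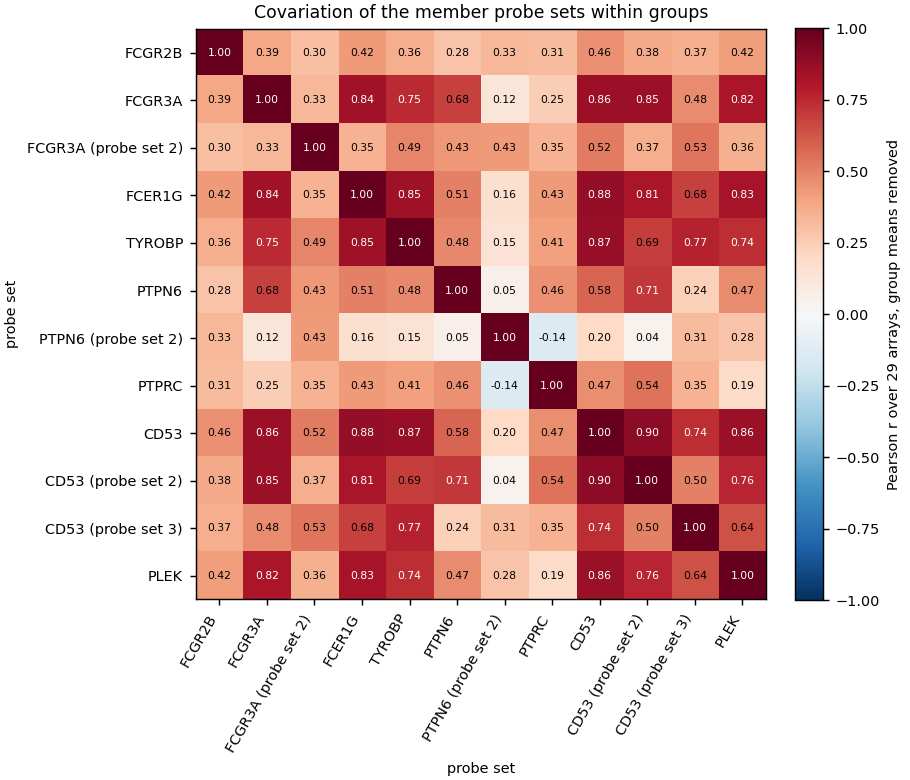
Pearson r between the 12 probe sets (both axes) over 29 arrays after removing group means, on a colour scale from -1 to 1. The representative probe sets of FCGR3A, FCER1G, TYROBP, CD53 and PLEK form a block at 0.74 to 0.88. FCGR2B has 0.28 to 0.46 with the other representative probe sets. The second PTPN6 probe set gives -0.14 with PTPRC and 0.05 with the first.

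Among the 6757 other named genes, those most like the mean of the 8 over 29 arrays were BLNK (r = 0.946), GMFG (0.929), VAV1 (0.928), PIK3AP1 (0.914), ITGB2 (0.912), BTK (0.909), C1QC (0.908) and AIF1 (0.907). These values include the group differences. With group means removed the closest were ITGB2 (0.920), GMFG (0.899), AIF1 (0.896), CASP1 (0.886), FAM49B (0.868), SLC11A1 (0.857), BLNK (0.855) and VAV1 (0.853). ITGB2 is the common chain of leukocyte integrins and was also the closest gene to CD53 (0.909) and PLEK (0.840). SLC11A1, a metal transporter of the macrophage phagosome, was closest to FCER1G (0.907), GMFG to TYROBP (0.935), LY86 to FCGR3A (0.861) and AIF1 to PTPN6 (0.701). FCGR2B and PTPRC had weaker closest genes, HNRNPH3 (0.695) and YWHAZ (0.667).

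Downstream of the receptors, kinases and adaptors are the part of the pathway the array covered best, with 21 of 36 listed genes measured by symbol. SYK, INPP5D and DOCK2 were among those with no probe set by symbol. In the brachial artery 3 of the 21 fell with exercise and 0 rose, against 0.613% and 1.02% of all probe sets, with a median of -0.23. The list was drawn up with earlier results of these data known, and this comparison also helped choose the genes followed here. The 3 that fell, BLNK, PIK3AP1 and BTK, were among the genes most like the mean of those followed genes, group differences included. Their count is therefore a description and not a separate result for the pathway. BLNK, an adaptor that links SYK to calcium signalling in B cells and is also found in macrophages, gave -0.96 ± 0.19 (limma adjusted p = 0.0104). PIK3AP1, an adaptor for phosphoinositide 3-kinase, gave -0.67 ± 0.17 (limma adjusted p = 0.0442), and BTK, a kinase of B and myeloid cells, gave -0.55 ± 0.15 (limma adjusted p = 0.0473). LCP2, the adaptor SLP-76, gave -0.80 ± 0.24 (adjusted p = 0.0835), VAV1, an exchange factor for Rac, gave -0.48 ± 0.13 (adjusted p = 0.056), and RAC2 gave -0.52 ± 0.16 (adjusted p = 0.0812). CYBB, the catalytic subunit of the phagocyte oxidase, gave -0.57 ± 0.22 and the SRC-family kinase LYN -0.30 ± 0.15, and neither passed.

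Of these 21 genes 0 passed in the internal mammary artery and the median was 0.03. BLNK gave -0.09 ± 0.18, BTK 0.10 ± 0.14, PIK3AP1 0.00 ± 0.17, LCP2 0.07 ± 0.24, VAV1 0.00 ± 0.13, RAC2 0.13 ± 0.15, CYBB -0.08 ± 0.21 and LYN 0.06 ± 0.14. Between the arteries 10 of 21 were lower and 3 higher in brachial scrapes, against 22.5% and 31.8% of all probe sets. PIK3CG, the gamma catalytic subunit of phosphoinositide 3-kinase in leukocytes, gave -0.995 ± 0.09, BLNK -0.78 ± 0.11, PIK3AP1 -0.71 ± 0.11 and GRB2 -0.32 ± 0.05 (limma adjusted p of 5.48e-10, 1.95e-06, 2.12e-06 and 2.38e-06). Other probe sets differ in sign for some of these genes, with artery differences from -0.32 to 0.38 over 3 probe sets of GRB2 and from -0.71 to 0.11 over 2 of PIK3AP1. The brachial training changes of 3 VAV1 probe sets ran from -0.48 to 0.07. With 2 probe sets each, PIK3AP1 ran from -0.67 to -0.11, RAC2 from -0.52 to -0.10 and LYN from -0.30 to -0.13 there.

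Receptors outside the 8 genes were covered less well. Of 10 measured receptors that couple to activation chains or carry inhibitory motifs, 0 passed for exercise in the brachial artery, with a median of -0.02. For the internal mammary artery 1 passed: CD79B, a signalling chain of the B cell receptor, rose by 1.46 ± 0.31 (limma adjusted p = 0.0244). Its brachial change was 0.66 ± 0.31 (adjusted p = 0.313). HCST, which encodes the partner chain DAP10 and lies next to TYROBP in the RefSeq order, gave 0.22 ± 0.08 for brachial and 0.18 ± 0.07 for internal mammary arteries, and neither passed. Between the arteries 4 of these 10 were higher and 2 lower in brachial scrapes, against 31.8% and 22.5% of all probe sets. Among them were CD79B (-0.99 ± 0.19), SIGLEC1 (0.27 ± 0.06), HCST (0.21 ± 0.05) and CD247 (-0.49 ± 0.12).

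Of 13 other Fc receptors 4 were measured, and 0 passed for exercise in either artery. FCGRT, the neonatal receptor that protects IgG from breakdown and is carried by endothelium, gave -0.07 ± 0.09 for brachial and 0.00 ± 0.09 for internal mammary arteries. PIGR, the carrier of secreted antibodies across epithelia, was the 1 that passed between arteries (0.15 ± 0.04). Of 5 measured phosphatases of leukocyte signalling, PTPN1 fell in brachial arteries with exercise (-0.42 ± 0.09, limma adjusted p = 0.0116), 0 passed in internal mammary arteries, and PTPN1 was lower in brachial scrapes (-0.16 ± 0.05). The 3 PTPN1 probe sets ran from -0.42 to 0.14 for brachial training and from -0.16 to 0.19 between arteries. Of 15 tetraspanins other than CD53, 1 rose with exercise in the brachial artery, TSPAN12 (0.53 ± 0.11), named after its value was seen, and 0 passed in the internal mammary artery. The median was 0.03 in both. Between arteries 4 tetraspanins were higher and 3 lower, against 31.8% and 22.5% of all probe sets. They included CD9 (0.20 ± 0.04), TSPAN7 (-0.83 ± 0.13), TSPAN14 (-0.28 ± 0.06) and CD151 (0.21 ± 0.05). Of 7 antibody genes 1 was measured, JCHAIN, which joins antibody units into polymers. Its changes were -0.16 for brachial and 0.12 for internal mammary arteries, and it did not pass.

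**Figure D5:**
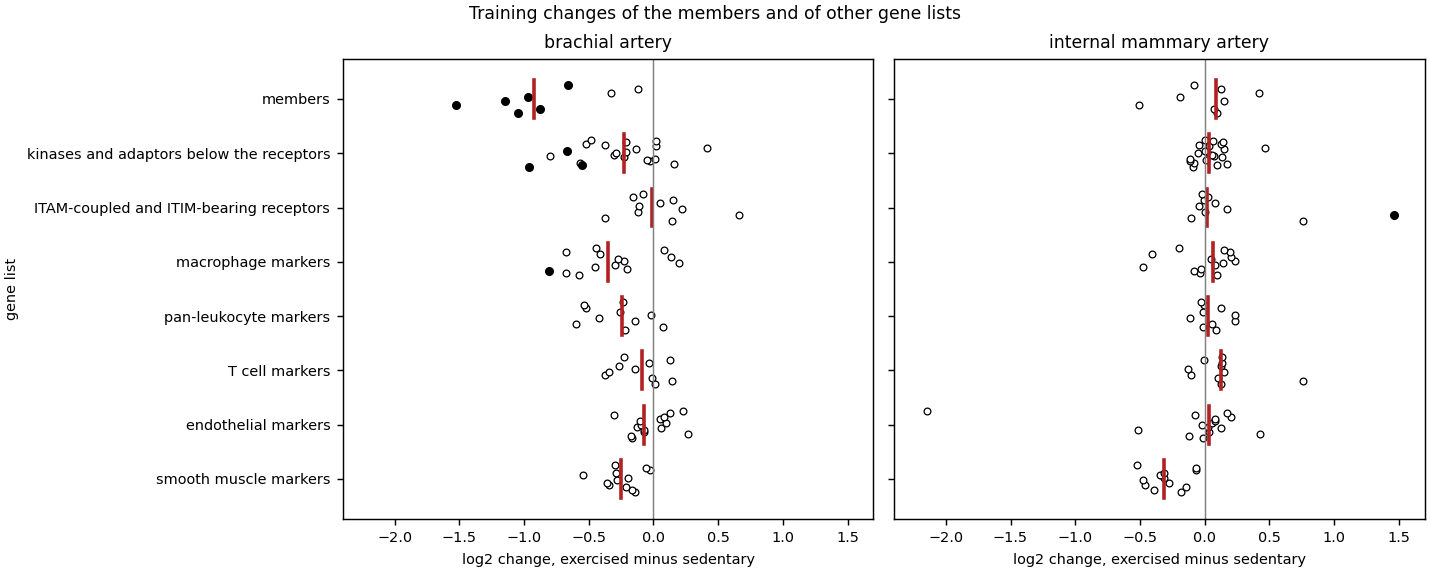
Log2 change, exercised minus sedentary (x axis), of each measured gene in the 8 members and 7 other gene lists (y axis), for the brachial and the internal mammary artery. Filled points have an adjusted p under 0.05 and open points do not. In the brachial panel the filling of the 8 members is not read, because that comparison helped choose them. Red bars are medians, which run from -0.92 (members) to -0.02 in the brachial panel and from -0.32 (smooth muscle) to 0.13 (T cells) in the internal mammary panel.

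Pan-leukocyte markers, none of which passed for exercise in either artery, were set beside the 8 genes. The mean log2 intensity of 10 pan-leukocyte markers, none of them among the 8, ran from 7.57 through 7.73 to 7.92 in exercised brachial arrays, against 7.86, 8.08 and 8.23 in sedentary brachial arrays. In internal mammary arrays it was 7.73, 7.93 and 8.21 in exercised pigs, against 7.50, 7.89 and 8.22 in sedentary pigs. The fitted change was negative for 9 of the 10 in the brachial artery, with a median of -0.25. ITGB2 gave -0.60 ± 0.18 (limma adjusted p = 0.0847), SPI1, a transcription factor of myeloid cells, -0.54 ± 0.16 (adjusted p = 0.0782), and LAPTM5, a lysosomal protein of blood cells, -0.15 ± 0.15. With the mean of the 10 markers as a covariate, chosen after seeing the data, the brachial training changes became -1.33 for FCGR2B, -0.54 for FCGR3A, -0.38 for CD53, -0.37 for PLEK, -0.33 for FCER1G, -0.20 for TYROBP, -0.03 for PTPN6 and 0.05 for PTPRC.

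CD68 and CSF1R, which help define macrophages, had no probe set by symbol. The mean of 14 such markers was 7.55, 7.66 and 7.90 (lowest, median and highest) in exercised brachial arrays, against 7.75, 7.91 and 8.65 in sedentary brachial arrays, and the groups overlapped. In internal mammary arrays it was 7.70, 8.05 and 8.36 in exercised pigs, against 7.73, 7.98 and 8.45 in sedentary pigs. Of the 14 markers 11 were lower with exercise in the brachial artery, and 1 fell past the threshold, the complement gene C1QC (-0.81 ± 0.18, limma adjusted p = 0.0228). The scavenger receptor CD163 gave -0.45 ± 0.31, the endotoxin coreceptor CD14 -0.21 ± 0.13, SLC11A1 -0.68 ± 0.24 and AIF1 -0.57 ± 0.19, and none of these passed. In internal mammary arteries 0 of 14 passed, with a median of 0.07. Between arteries 6 were lower and 1 higher in brachial scrapes, against 22.5% and 31.8% of all probe sets. MARCO gave 0.63 ± 0.04, C1QC -0.69 ± 0.11 and ITGAM -0.41 ± 0.07 (its second probe set gave 0.13). With the macrophage mean as a covariate the brachial changes of the 8 genes were FCGR2B -1.22, FCGR3A -0.89, PLEK -0.80, CD53 -0.72, FCER1G -0.63, TYROBP -0.41, PTPN6 -0.18 and PTPRC 0.06. These covariates are means of transcripts on the same arrays and cannot tell fewer cells from less RNA per cell. The part of cell make-up in the differences was not tested.

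Markers of other cell types were examined for the same training difference. For the brachial artery 0 passed of 10 T cell, 4 B and plasma cell, 4 natural killer, 7 granulocyte, 4 platelet, 4 mast cell, 6 dendritic, 15 endothelial, 12 smooth muscle, 8 fibroblast and 2 erythroid markers. The medians were -0.09 for T cells, 0.02 for B and plasma cells, -0.17 for natural killer cells, 0.07 for granulocytes, 0.03 for platelets, -0.06 for mast cells and -0.20 for dendritic cells. Those of endothelial, smooth muscle, fibroblast and erythroid markers were -0.08, -0.25, 0.06 and -0.05. All 12 smooth muscle markers were negative in both arteries, with a median of -0.32 in the internal mammary artery. CD3E of T cells gave -0.37 ± 0.23 in the brachial artery and KIT of mast cells -0.08 ± 0.14, while PECAM1 of endothelium gave 0.05 ± 0.08. PF4 of platelets and MYH11 of smooth muscle had no probe set by symbol.

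Of the markers of these other cell types 1, CD79B, passed for exercise in the internal mammary artery. Medians there were 0.13 for T cells, 0.09 for B and plasma cells, -0.05 for natural killer cells, -0.46 for granulocytes, -0.06 for platelets, -0.07 for mast cells and 0.03 for dendritic and endothelial cells. Those of fibroblast and erythroid markers were 0.15 and 0.27. VWF, the clotting factor carrier of endothelium, gave -2.14 ± 0.63 and did not pass (limma adjusted p = 0.112), and its 3 probe sets ran from -2.14 to 0.02. Between arteries, where 31.8% of all probe sets were higher and 22.5% lower, 6 of 10 T cell markers were higher in brachial scrapes. Among them were GATA3 (0.30 ± 0.03) and CD8B (0.24 ± 0.05), and 1 T cell marker was lower, CD247 (-0.49 ± 0.12). The 4 probe sets of GATA3 ran from -0.17 to 0.30 and the 4 of CD247 from -0.49 to 0.19. Higher and lower counts between arteries were 4 and 3 of 15 endothelial markers, 3 and 1 of 12 smooth muscle, 2 and 0 of 8 fibroblast, 1 and 2 of 7 granulocyte and 1 and 2 of 6 dendritic markers. They were 1 and 0 of 4 platelet, 1 and 0 of 4 mast cell, 1 and 0 of 4 natural killer, 0 and 1 of 4 B and plasma cell and 0 and 1 of 2 erythroid markers.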

How the data were processed

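Per the labels, arteries were opened and the luminal surface scraped into a phenol reagent, and biotin-labelled RNA primed from the poly(A) tail was hybridised to 1-colour oligonucleotide arrays. What the authors deposited are intensities on the log2 scale, 1 per probe set. The package affy is named in the submitters' processing notes without a version, and background correction, summary and normalization are not given in the sources used here. Signal over background could not be measured. Groups came from titles and tags. For the 8 internal mammary samples of exercised pigs the source names a sedentary pig, and their titles were followed. The design text gives the unpaired pig a brachial array, whereas the labels give it an internal mammary one.

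After leaving out 124 control probe sets, limma 3.58.1 under R 4.3.3 was run on 23999, estimating a mean for each of the 4 groups. The pig entered as a random block, whose estimated correlation was 0.255, with moderated tests and Benjamini-Hochberg adjustment over all probe sets at 0.05. Probe sets with 1 symbol in the platform annotation (10069) could be named. The pairing by pig is stated in the labels. After removing group means, a pig's own pair of arteries correlated best in 7 of 14 pigs (median 0.190, against -0.0230 between pigs).

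The 8 members and the 19 other gene lists were chosen with earlier results of these data known. Genes were named by rule: all members, list genes passing in the internal mammary or artery comparison (at most 4 per pathway list or 3 per cell type list, by smallest p), 26 genes of the pathway and of cell types whatever their values, and the genes most alike in correlation. List genes that passed in the brachial comparison were added after their values were seen. Alternatives left out each pig, changed the block, the scaling, the prior or the array weights, dropped dim probe sets, split the pigs by order of collection or added covariates. The script was tested on simulated data. Files were read with jsonlite 2.0.0 and with version 1.17.8 of data.table, and figures drawn with matplotlib 3.10.9 and pandas 2.3.3 under Python 3.11.15. No sequence was at hand for the members, so none is shown.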

Additional observations from a re-analysis of the deposited data

Results flagged for a closer look

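Of 48 groups examined for a single distant array (12 probe sets in 4 groups), 1 held one, and about 1 in 20 would do so by chance. One of the probe sets of CD53, not its representative, read 5.75 in the internal mammary artery of sedentary pig 11_1, with the nearest of the other 6 sedentary arrays at 6.45 and the highest at 6.85. The gap was 0.636 of the group's range, against a critical value of 0.568. The same pig was also lowest of its group for the representative probe sets of CD53, FCER1G, TYROBP and PLEK. Without it the internal mammary training changes of CD53 and FCER1G were -0.030 and -0.057.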

How the results depend on the processing

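Over 15 other settings and with each pig left out in turn, 0 of the 8 genes passed for exercise in the internal mammary artery, and FCGR2B stayed negative and PTPN6 positive there by their representative probe sets. The number of probe sets passing in that comparison was less stable: 143 as reported, 13 with a fixed replicate block (each artery then fitted alone), 337 with array weights, 273 with the 28S to 18S ratio and 242 with the smooth muscle mean as covariate, 5 in the first collection period and 0 in the last (1662 at an unadjusted p under 0.05), and 35 to 291 with 1 pig left out. Signs turned in that artery for CD53 (-0.052) and FCER1G (-0.012) with array weights, for PLEK (0.16) and TYROBP (0.19) in the first period, for CD53 (-0.25), FCGR3A (-0.021), PTPRC (-0.10) and FCER1G (-0.17) in the last, for CD53 (-0.037) and FCER1G (-0.032) with the pan-leukocyte mean, and for CD53 (-0.046) and PTPN6 (-0.022) by another probe set. With 1 pig left out CD53 ran from -0.030 (without pig 11_1) to 0.23 and FCER1G from -0.057 (without pig 11_1) to 0.17, also turning without pig 13_2.

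Between arteries, where the values share the arrays that chose the genes, all genes but PTPRC stayed lower in brachial scrapes by representative probe sets. This held under every setting in which they were measured and whichever pig was left out. Over the whole array 13026 probe sets passed, 1742 with the hybridisation control mean and 8596 in the last period. PTPRC gave -0.015 with the RNA ratio and -0.012 in the first period, and the second probe sets of FCGR3A and PTPN6 gave 0.30 and 0.24. FCER1G shrank to -0.24 with the macrophage mean. For exercise in the brachial artery 392 probe sets passed, 122 with each artery alone, 38 with the macrophage mean, 49 with the pan-leukocyte mean, 773 with the smooth muscle mean, 11 in the first period, 0 in the last (2355 at an unadjusted p under 0.05) and 149 to 589 with 1 pig left out. PTPRC turned to 0.062 with the macrophage and 0.048 with the pan-leukocyte mean, and PTPN6 was 0.064 by its other probe set. Causes of these shifts were not tested. A period also holds fewer arrays, and the part of that in its counts was not tested either. PTPN6 has no value once dim probe sets are dropped.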
